A study of Mus musculus with 8 samples.

Results

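The interferon regulatory factors (IRFs) are a family of transcription factors that share a DNA-binding domain, and this account follows the family members Irf1, Irf2, Irf3, Irf5, Irf7, Irf8 and Irf9. The members were taken by name: each probe set annotated to 1 of these 7 genes and to no other gene was used, which gave 12 probe sets for 7 of the 12393 genes named on the arrays. Their signals were read on all 8 arrays. The rule itself used names and no signal, though the members were chosen with earlier results of these data known. Of the 12 probe sets, 10 reached the detection floor on at least 1 array. The floor was a scaled signal of 122, the 40th percentile of all values, below which signals were treated as having no order.

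The study asked how mouse embryonic fibroblasts respond to B-form DNA when the kinases Tbk1 and Ikbke (also called IKK-i or IKK-epsilon) are missing. Fibroblasts of the C57BL/6 x 129Ola background were wild type (WT, Tbk1+/+ Ikbke+/+), Tbk1-/-, Ikbke-/- or Tbk1-/- Ikbke-/- (double mutant). Cells of each of the 4 genotypes were mock transfected or transfected with the synthetic B-DNA poly(dA-dT)-poly(dT-dA) for 4 h, and total RNA of each of the 8 groups was measured on 1 Affymetrix array. No group had a replicate, so a ratio of B-DNA over mock within a genotype had no test, and the labels do not give the number of embryos or cultures behind a genotype. The labels name no cell type to which a deletion was restricted.

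In cells that sense foreign nucleic acid, Tbk1 and Ikbke phosphorylate Irf3 and Irf7, which dimerize, enter the nucleus and switch on type I interferon genes. Secreted interferon then acts through its receptor on Stat2, which joins Irf9 in the complex ISGF3 at interferon-stimulated response elements (ISREs). Irf1 and Irf7 are themselves interferon-inducible, Irf2 is known as an antagonist of Irf1 at shared sites, and Irf5 and Irf8 are best known from myeloid and lymphoid cells. Phosphorylation was not measured on these arrays, which report messenger RNA only.

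The promoters of 4 genes are shown because their genes gave the main contrasts below: Irf1, which was higher after B-DNA in the double mutant as well, and Irf2, Irf7 and Irf9, which were higher after B-DNA in WT and Ikbke-/- cells and in neither genotype without Tbk1. Each sequence is a RefSeq window (GRCm38.p6) running from 250 bases before to 50 bases after a transcript start, 5′ to 3′ on the gene's strand, and all 7 members matched a window. Capitals mark matches to 3 motifs searched on both strands: the ISRE core GAAANNGAAA, the STAT-binding GAS element TTCNNNGAA, and the NF-kB motif.
Irf1, chr11:53769764-53770063, plus strand: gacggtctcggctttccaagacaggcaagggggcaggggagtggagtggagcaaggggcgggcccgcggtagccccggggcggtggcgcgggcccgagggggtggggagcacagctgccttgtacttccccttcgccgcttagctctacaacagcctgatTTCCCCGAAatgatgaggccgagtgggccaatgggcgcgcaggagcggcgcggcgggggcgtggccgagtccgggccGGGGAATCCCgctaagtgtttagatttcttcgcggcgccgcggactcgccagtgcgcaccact
Irf2, chr8:46739495-46739794, plus strand: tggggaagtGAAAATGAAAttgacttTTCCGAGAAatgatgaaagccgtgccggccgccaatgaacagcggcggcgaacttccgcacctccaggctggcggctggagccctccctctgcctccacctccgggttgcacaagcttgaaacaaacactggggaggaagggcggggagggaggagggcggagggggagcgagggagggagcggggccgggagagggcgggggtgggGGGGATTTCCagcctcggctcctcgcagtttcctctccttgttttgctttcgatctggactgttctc
Irf7, chr7:141266375-141266674, minus strand: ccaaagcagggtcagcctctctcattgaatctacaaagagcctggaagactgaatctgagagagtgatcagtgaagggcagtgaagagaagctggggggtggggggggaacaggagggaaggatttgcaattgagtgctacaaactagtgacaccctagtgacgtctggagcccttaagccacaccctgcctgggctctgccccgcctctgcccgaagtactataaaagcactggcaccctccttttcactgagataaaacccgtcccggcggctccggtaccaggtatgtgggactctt
Irf9, chr14:55603735-55604034, plus strand: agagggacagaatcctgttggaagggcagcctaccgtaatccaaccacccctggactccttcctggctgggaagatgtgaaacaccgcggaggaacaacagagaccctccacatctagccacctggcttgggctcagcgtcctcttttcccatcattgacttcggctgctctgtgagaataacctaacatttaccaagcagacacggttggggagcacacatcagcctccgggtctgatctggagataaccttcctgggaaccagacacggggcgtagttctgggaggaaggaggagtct

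The Irf2 window held 1 ISRE core, at bases -241 to -232 from the start, 1 GAS element at -224 to -216 and 1 NF-kB match at -17 to -8. The Irf1 window held a GAS element at -90 to -82 and an NF-kB match at -13 to -4, which matched on both strands, and no ISRE core. None of the 3 motifs occurred in the Irf7 and Irf9 windows shown, in the second RefSeq windows of Irf1 and Irf9, or in the windows of Irf3 and Irf5. The first Irf8 window held 2 GAS elements. Over all 32851 windows in the RefSeq table, 3.44% held an ISRE core, 8.3% a GAS element and 4.51% an NF-kB match. The Irf7 start used lies 75 bases inside the gene's outermost annotated start, and that of Irf5 lies 495 bases inside, so sequence farther upstream was not searched. A match is a description of letters and not a binding site.

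Array-wide properties that touch these genes were as follows. The 2% trimmed mean of the deposited signals ran from 140 to 255 over the 8 arrays, and each array was scaled to 500, by factors of 1.96 to 3.58. The Tbk1 probe set read 472 to 989 on the 4 arrays of Tbk1+/+ cells and 226 to 390 on the 4 arrays of Tbk1-/- cells, whereas the Ikbke probe set never reached the floor and so checks no genotype. Of 12 fibroblast marker genes, 10 to 12 were at or above 2 floors (244) on every array, including the collagen gene Col1a1. Of 18 macrophage markers, 13 were at or above 2 floors on the WT mock array and 11 on the WT B-DNA array, against 1 or 2 on the other 6. The summed macrophage marker signal was 15689 and 5586 on the WT arrays and 1604 to 1989 elsewhere. B cell, T cell and dendritic cell markers reached 2 floors on no array, and at most 1 endothelial and 1 epithelial marker did on any array. The female-specific RNA Xist read 2950 to 3766 on the 4 Ikbke+/+ arrays and 138 to 209 on the 4 Ikbke-/- arrays, so that embryo sex and loss of Ikbke cannot be told apart.

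For Irf1, Irf2, Irf5, Irf7 and Irf9, 1 probe set each was higher after B-DNA in WT cells by the 2-fold rule. That rule asks for a 2-fold ratio with the higher signal at or above 2 floors. These were 5 of the 12 probe sets, and of the 10 among them that reached the floor. Over the whole array, 3.04% of the 16406 probe sets that reached the floor were higher in that pair. The same 5 probe sets were higher in Ikbke-/- cells, where 3.22% of all probe sets were. None was higher in Tbk1-/- cells (0.311% of all), and 2, for Irf1 and Irf5, were higher in the double mutant (0.652% of all). One probe set, for Irf3, was lower, in Ikbke-/- cells only, where 1.45% of all probe sets were lower. No IRF probe set was lower in WT (1.82% of all), Tbk1-/- (0.482%) or double mutant cells (0.853%). Without the scaling, the share of higher probe sets among all probe sets past 2-fold went from 62.5% to 18.5% in WT, 39.2% to 19.2% in Tbk1-/-, 68.9% to 38% in Ikbke-/- and 43.3% to 83.7% in double mutant cells, and the median log2 ratio of all probe sets, 0 after scaling, became -0.38, -0.11, -0.23 and 0.09.

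**Figure D1:**
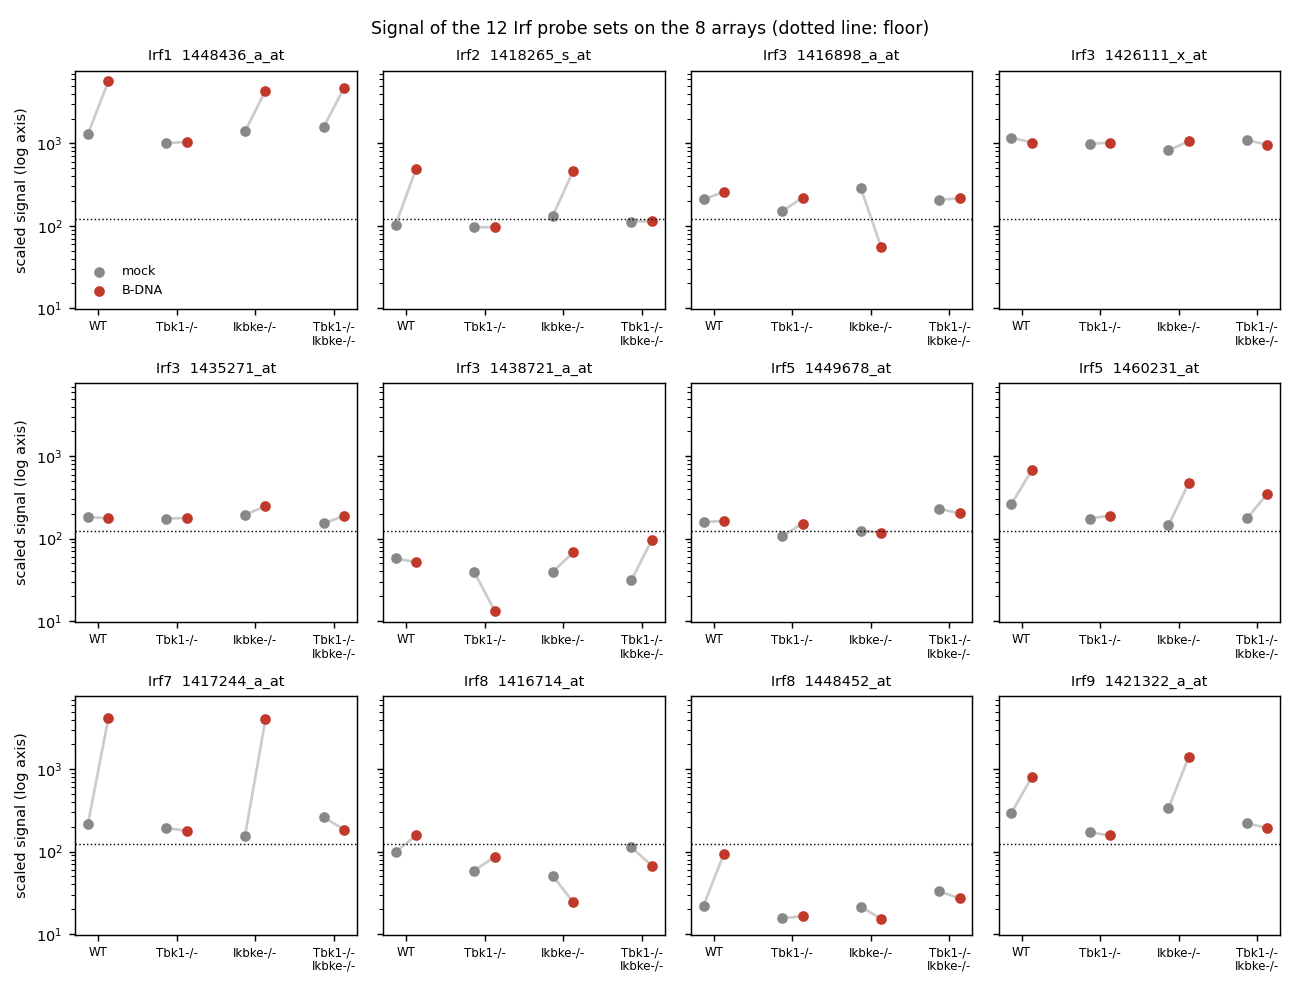
Scaled signal (log axis) of each of the 12 IRF probe sets on the 8 arrays, mock in grey and B-DNA in red, 1 array a point; the dotted line is the floor of 122. Irf7, Irf9 and Irf2 are high on the WT and Ikbke-/- B-DNA arrays only, Irf1 is also high on the double mutant B-DNA array, and the signal of the brightest Irf3 probe set lies between 823 and 1178 on all 8 arrays.

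Irf7, the IRF that carries the interferon-driven second wave of type I interferon production, had the largest B-DNA ratios among the 12 probe sets. Its probe set read 216 on the mock array and 4150 on the B-DNA array of WT cells, and 156 and 4045 in Ikbke-/- cells. In Tbk1-/- cells it read 194 and 177, and in the double mutant 262 and 185. The probe set was above the floor on all 8 arrays. Both B-DNA arrays with Tbk1 stood more than 10 times above every other array, and the remaining 6 arrays lay between 156 and 262. The ratio of B-DNA over mock was 19.2-fold in WT (log2 4.27) and 25.9-fold in Ikbke-/- cells (log2 4.69), against log2 ratios of -0.13 in Tbk1-/- and -0.50 in double mutant cells.

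Whether the B-DNA ratio changed with the loss of Tbk1 was tested in 1 limma model over all 16406 probe sets, with a block for genotype and with Tbk1 and Ikbke each allowed to alter the B-DNA ratio. In that fit the Irf7 log2 ratio was lower by 4.80 in cells without Tbk1 (estimate -4.80, SE 0.28, limma adjusted p = 6.62e-04; 4 pairs of arrays). The same effect was -4.39 between the WT and Tbk1-/- pairs and -5.20 between the Ikbke-/- and double mutant pairs. Across the array, 1.51% of probe sets were called with a lower response without Tbk1 and 0.134% with a higher one. Of the alternatives that follow, those that left out a pair of arrays had no Ikbke term. With additive genotype factors, or with no filter on low signals, no probe set on the array was called. The model has 1 residual degree of freedom, and the call ended when genotype was fitted as additive factors in place of the block (limma adjusted p = 0.238), when no filter on low signals was used (0.356), and when the WT, Tbk1-/-, Ikbke-/- or double mutant pair was left out (0.404, 0.29, 0.378 and 0.421), with the estimate staying between -5.01 and -4.58.

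Irf9, the DNA-binding subunit of ISGF3, followed the same genotypes over a smaller range. Its probe set, also above the floor on all 8 arrays, read 293 on the mock and 797 on the B-DNA array of WT cells and 335 and 1422 in Ikbke-/- cells. In Tbk1-/- cells it read 171 and 157, and in the double mutant 221 and 192. The 2 Tbk1+/+ B-DNA arrays were the highest of the 8, and the Ikbke-/- one was 1.78-fold above the WT one. The ratio was 2.72-fold in WT (log2 1.44) and 4.25-fold in Ikbke-/- cells (log2 2.09), with log2 ratios of -0.13 and -0.20 in Tbk1-/- and double mutant cells.

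The Irf9 response was lower without Tbk1 by a log2 estimate of -1.93 (SE 0.27, limma adjusted p = 0.0238). Its call ended in the settings that ended the call of Irf7 (limma adjusted p 0.303 to 0.527) and also without scaling (0.083), with the floor at the 20th percentile (0.19) and without the Ikbke term (0.0868), at estimates between -2.25 and -1.60. On the mock arrays Irf9 was lower in both genotypes without Tbk1 (171 and 221) than in both with it (293 and 335). That difference was a log2 estimate of -0.69 (SE 0.12) and did not pass the test (limma unadjusted p = 0.0343, adjusted p = 0.953).

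Irf2 encodes a factor known as a repressor of Irf1 target genes and also as an activator at some promoters. Its probe set was near the floor before B-DNA, with 103 on the WT mock array and 132 on the Ikbke-/- mock array, and it read 493 and 466 on their B-DNA arrays. All 4 arrays of cells without Tbk1 were under the floor, at 95.7 and 96.4 in Tbk1-/- cells and 113 and 113 in the double mutant. Irf2 was therefore at least 4.03-fold higher after B-DNA in WT and 3.51-fold higher in Ikbke-/- cells. The limma estimate of the Tbk1 effect on its log2 ratio was -1.91 (SE 0.24, adjusted p = 0.0142), but the probe set entered that test through 3 arrays of Tbk1+/+ cells alone. Both ratios without Tbk1 are 0 because both signals were set to the floor, so their closeness is fixed by the floor, and this p gives no support beyond the signals themselves. The probe set is absent from the fit on probe sets above the floor on all arrays, and its call ended with the floor at the 20th percentile (estimate -2.02, limma adjusted p = 0.155), without scaling (0.0596), and in the settings that ended the call of Irf7 (0.29 to 0.421).

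**Figure D2:**
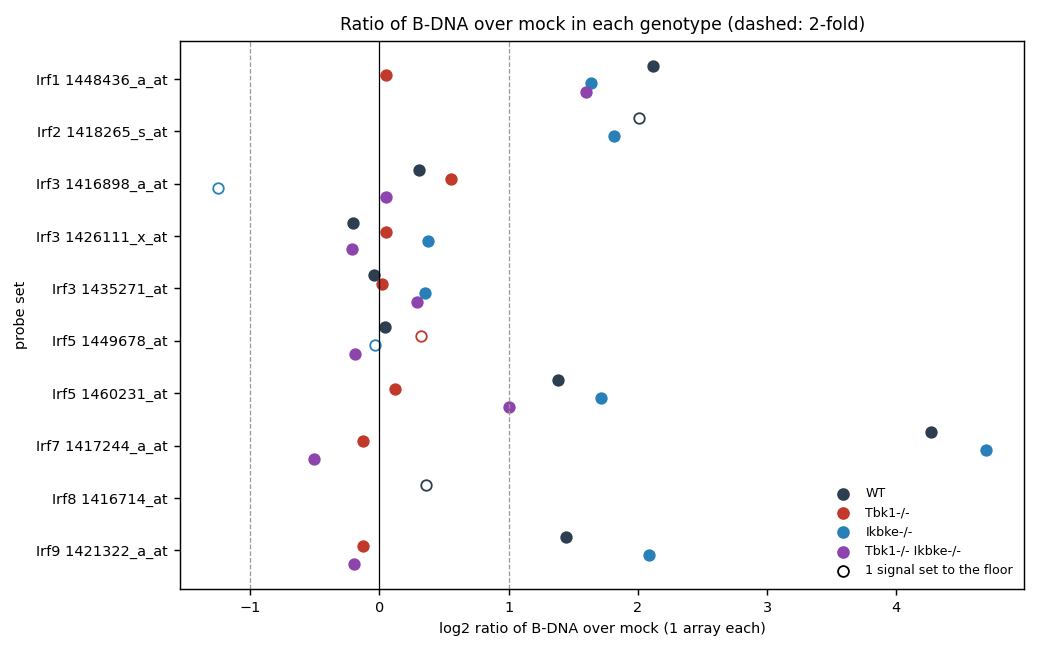
Log2 ratio of B-DNA over mock for the 10 IRF probe sets that reached the floor, 1 point a genotype and 1 array on each side of a ratio; open points have 1 signal set to the floor, points with both signals under the floor are left out, and dashed lines mark 2-fold. Irf7 lies at 4.27 and 4.69 in WT and Ikbke-/- cells and below 0 in both genotypes without Tbk1, while Irf1 lies at 1.60 in the double mutant and 0.05 in Tbk1-/- cells.

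Irf1, the first IRF described and an activator of antigen-presentation and guanylate-binding protein genes, did not split by Tbk1 genotype alone. The probe set read 1299.6 and 5653 in WT cells, 1406 and 4379 in Ikbke-/- cells and 1569 and 4743 in the double mutant, mock and B-DNA in turn. In Tbk1-/- cells it read 1005 and 1044. The B-DNA arrays other than that of Tbk1-/- cells lay between 4379 and 5653, and the other 5 arrays lay between 1005 and 1569. The ratio was 4.35-fold in WT, 3.11-fold in Ikbke-/- and 3.02-fold in double mutant cells, and 1.04-fold in Tbk1-/- cells.

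The Tbk1 effect on the Irf1 log2 ratio was -2.07 between the WT and Tbk1-/- pairs and -0.04 between the Ikbke-/- and double mutant pairs. With 1 pair a genotype the difference between those effects was not tested. The model takes that difference as its error, so it widens the SE of the pooled estimate. The pooled estimate of -1.05 (SE 0.46) did not pass the test (limma adjusted p = 0.342). Averaged over genotypes, the B-DNA response of Irf1 was a log2 ratio of 1.35 (SE 0.35), which also did not pass (limma unadjusted p = 0.012, adjusted p = 0.621); no probe set on the array was called for the average response, and 1305 had an unadjusted p under 0.05. On the B-DNA arrays, Irf1 was 5.42-fold lower in Tbk1-/- than in WT cells and 1.19-fold lower in the double mutant.

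Irf5, which acts downstream of Toll-like receptors and is best known from macrophages and B cells, was named by 2 probe sets that disagreed. Probe set 1460231_at read 261 and 679 in WT cells, 145 and 476 in Ikbke-/- cells, 176 and 353 in the double mutant, and 175 and 191 in Tbk1-/- cells. Its B-DNA array was above its mock array by 2.60-fold in WT, 3.29-fold in Ikbke-/- and 2.00-fold in the double mutant, the last at the edge of the rule, and by 1.09-fold in Tbk1-/- cells. The WT log2 ratio of 1.38 was 0.98, under 2-fold, without scaling, where the median of all probe sets was -0.38. Probe set 1449678_at lay between 106 and 230 on all 8 arrays, and its log2 ratios ran from -0.19 to 0.32.

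The Tbk1 estimate for 1460231_at was -0.99 (SE 0.26) and did not pass the test (limma adjusted p = 0.154). The effect was -1.26 between the WT and Tbk1-/- pairs and -0.71 between the Ikbke-/- and double mutant pairs, and the estimate moved to -0.55 without the Tbk1-/- pair and -1.43 without the double mutant pair. Macrophage markers were highest on the 2 WT arrays, where the signal of 1460231_at was also the highest among mock arrays and among B-DNA arrays. The summed marker signal was lower on the WT B-DNA array (5586) than on the WT mock array (15689), opposite to this probe set, and was 1705 on the Ikbke-/- B-DNA array, where it read 476. Beyond these values, a part of macrophage RNA in the Irf5 signal was not tested, and in bulk RNA fewer cells of a type and less RNA per cell cannot be told apart.

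Irf8, a regulator of monocyte and dendritic cell development, was at or near the limit of detection. Probe set 1416714_at read 98.8 and 157 on the mock and B-DNA arrays of WT cells and 24.2 to 112 on the other 6 arrays, so that 1 of 8 arrays was above the floor. Probe set 1448452_at was under the floor on all arrays, with its highest value, 94.4, on the WT B-DNA array. No Irf8 ratio met the 2-fold rule, and the WT arrays were also those with macrophage marker signal, whose part was not tested. Outside these members, neither probe set of Irf4, a lymphoid and myeloid factor, met the 2-fold rule, and the brighter one read 87.7 to 157.

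Irf3, which is present before stimulation and is activated when Tbk1 phosphorylates it, was named by 4 probe sets. The brightest, 1426111_x_at, read 1178 and 1024 in WT, 988 and 1024 in Tbk1-/-, 823 and 1068 in Ikbke-/- and 1104 and 956 in double mutant cells, and its log2 ratios lay between -0.21 and 0.38. Probe set 1435271_at read 154 to 249 with log2 ratios of -0.04 to 0.35, and 1438721_a_at was under the floor on all arrays. Probe set 1416898_a_at read 209 and 258 in WT, 150 and 220 in Tbk1-/- and 207 and 215 in double mutant cells. On the Ikbke-/- arrays it read 289 and 55.4, at least 2.37-fold lower after B-DNA. That single low array was not shared by the other Irf3 probe sets, and the limma estimate of the Ikbke dependence, -1.02 (SE 0.31), did not pass (adjusted p = 0.973). The log2 ratio of the low pair was -1.24 with the main floor and -2.38 with the floor at the 20th percentile.

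**Figure D3:**
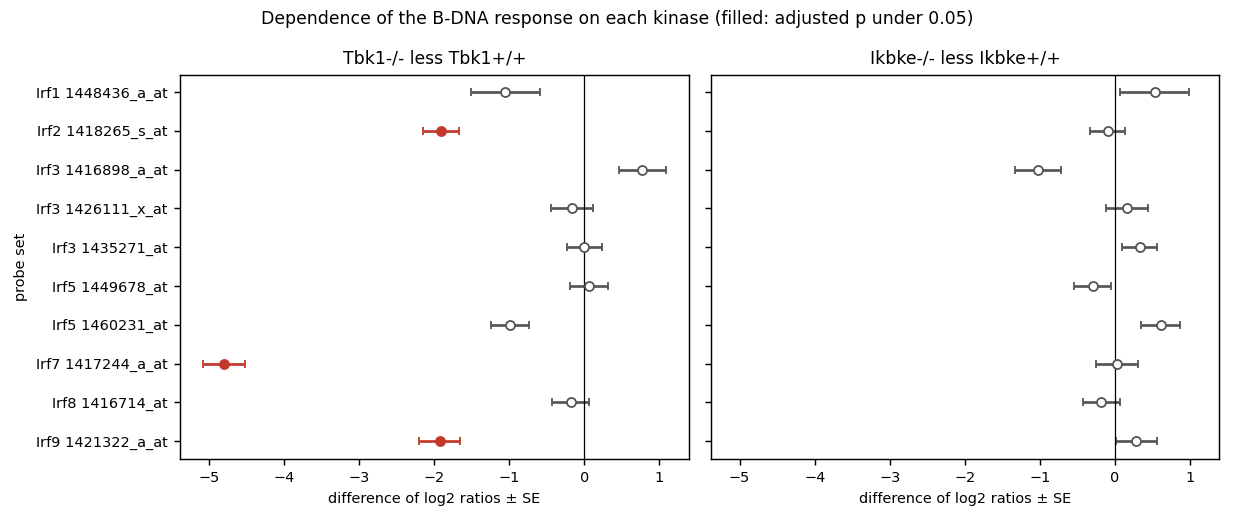
Estimated difference in the log2 ratio of B-DNA over mock, with its standard error, between cells without and with Tbk1 (left) and without and with Ikbke (right), from the limma model over 4 pairs of arrays, for the 10 IRF probe sets that reached the floor. Filled points have an adjusted p under 0.05: Irf7 at -4.80, Irf9 at -1.93 and Irf2 at -1.91 on the left, and none on the right; the Irf2 ratios without Tbk1 are both 0 because their signals were set to the floor.

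No IRF probe set passed the test for dependence on Ikbke. The estimate for Irf7 was 0.03 (SE 0.28), for Irf9 0.29 (SE 0.27), for Irf2 -0.10 (SE 0.24) and for Irf1 0.53 (SE 0.46), and that of Irf5 1460231_at was 0.61 (SE 0.26; limma unadjusted p = 0.0519, adjusted p = 0.973). No probe set on the whole array was called by limma in this contrast, while 792 had an unadjusted p under 0.05, and these values do not show that Ikbke had no effect.

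Before B-DNA, none of the 12 IRF probe sets differed 2-fold from the WT mock array in any mutant; on the whole array 2.27% were higher and 3.34% lower in Tbk1-/-, 2.24% and 2.94% in Ikbke-/-, and 5.45% and 5.49% in double mutant cells. Limma called no probe set on the array for the mock level by Tbk1 or by Ikbke genotype, with 412 and 513 at an unadjusted p under 0.05. The widest WT-to-mutant difference at mock among the members was in Irf5 1460231_at, 1.80-fold lower in Ikbke-/- cells, followed by Irf9, 1.72-fold lower in Tbk1-/- cells. On the B-DNA arrays 5 IRF probe sets (Irf1, Irf2, Irf5, Irf7 and Irf9) were lower in Tbk1-/- than in WT cells, against 5.87% of all probe sets. In the double mutant 3 were lower (Irf2, Irf7 and Irf9; 6.66% of all), and Irf5, at 1.92-fold, was just under the rule. In Ikbke-/- cells 1 Irf3 probe set was lower (3.3% of all). None was higher than in WT, where 4.44% of all probe sets were higher in Tbk1-/-, 7.53% in double mutant and 2.92% in Ikbke-/- cells. These comparisons share the WT B-DNA array with each other and with the WT ratio.

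Among the members' brightest probe sets, the floored log2 signal of Irf2 and Irf7 had a Pearson correlation of 0.99 over the 8 arrays. Irf2 and Irf9 had 0.93, Irf7 and Irf9 0.92, and Irf1 and Irf5 0.89. Irf2 reached the floor on 3 of the 8 arrays and has the same floored value on the rest, so its correlations are partly fixed by the floor. Irf3 correlated with the others at 0.29 or below. These are descriptions over arrays that share treatments and genotypes. Of 8208 genes above the floor on at least 4 arrays, those most like Irf7 were Gbp7 (0.998), Oasl1 (0.996), Iigp1 (0.996), Gbp2b (0.993) and Ifih1 (0.992), which encode guanylate-binding and immunity-related GTPases, an oligoadenylate synthetase-like protein and an RNA sensor. Those most like Irf2, with the same limit from the floor, were Irgm2 (0.996), Stard5 (0.995), Tor3a (0.993), Gbp7 (0.992) and Usp18 (0.990). Those most like Irf9 were Apobec3 (0.994), Sppl2a (0.989), Myd88 (0.986), Rtp4 (0.985) and Dok1 (0.984). Among the genes named here, Gbp7, Oasl1, Iigp1, Gbp2b, Irgm2, Usp18, Apobec3 and Rtp4 were under the floor on some arrays. They were held at its value there, so their correlations are also partly fixed by the floor.

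The genes most like Irf1 correlated less closely: Ptcd1 (0.961), Serpinb1a (0.952), Nat2 (0.952), Slc12a7 (0.950) and Rnf135 (0.942). Serpinb1a, a protease inhibitor, read 110 and 503 in WT, 96.5 and 118 in Tbk1-/-, 60.0 and 417 in Ikbke-/- and 195 and 280 in double mutant cells, so its double mutant B-DNA array was above its mock array but under the WT one. Those most like Irf5 were Htr1a (0.972), AU020206 (0.967), Tmcc3 (0.966), Washc4 (0.960) and G3bp2 (0.951). The ranking takes no account of the size of a change: Ptcd1 read 182 to 285 over the arrays, and Htr1a read 125 to 255, near the floor. Serpinb1a, Nat2, Rnf135 and Tmcc3 were under the floor on some arrays and were held at its value there.

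The genes around the IRFs were followed in fixed lists, chosen with earlier results of these data known, each gene by its brightest probe set. Where a mock signal was under the floor the ratio was taken against the floor and is given as a lower bound ("at least"), and the medians hold such genes at that bound. Genes with all 4 arrays of cells without Tbk1 under the floor have ratios of 0 there by construction, so calls for Tbk1 dependence among them are counted apart and add nothing to their signals. Other genes can be under the floor on both arrays of 1 genotype without Tbk1. Their ratio in that genotype is then also 0 by construction. Over all probe sets tested, 3.04% were higher after B-DNA in WT, 3.22% in Ikbke-/-, 0.311% in Tbk1-/- and 0.652% in double mutant cells. A lower response without Tbk1 was called for 1.51%. At the shares without Tbk1, a count of 0 does not set a list of this size apart. Of 17 sensors, adaptors and kinases that reached the floor, 8 were higher after B-DNA in WT, 7 in Ikbke-/- and none in Tbk1-/- or double mutant cells. Of these 17, 7 were called with a lower response without Tbk1, 4 of them with all arrays without Tbk1 under the floor. The median log2 ratio of the list in WT was 0.98 against 0 over all probe sets tested. The RNA sensor Ifih1 read 273 and 13655 in WT, 128 and 14101 in Ikbke-/-, and 133 to 187 on the arrays without Tbk1. The double-stranded RNA receptor Tlr3 was higher by a log2 ratio of at least 4.16 (WT) and 4.31 (Ikbke-/-). The nucleic acid sensors Zbp1 and Dhx58 were higher by at least 3.02 and 2.92 in WT and at least 2.70 and 2.26 in Ikbke-/- cells. The adaptor Myd88 had 1.67 and 2.19, and Sting1, the adaptor of cytosolic DNA sensing, had 1.51 and 0.84.

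Of 9 genes of interferons, their receptors and JAK-STAT signalling that reached the floor, 2 were higher in WT and in Ikbke-/- cells (3.04% and 3.22% of all probe sets). For Tbk1 dependence 1 was called, against 1.51% of all called with a lower response. Stat2, the partner of Irf9 in ISGF3, read 225 and 2007 in WT and 238 and 2282 in Ikbke-/- cells, and 131 to 224 on the arrays without Tbk1; its Tbk1 estimate was -2.85 (SE 0.26, limma adjusted p = 0.00432). The kinase Jak2 read 1.31 as its log2 ratio in WT and 1.63 in Ikbke-/- cells. Ifnb1, which encodes interferon beta, read 99.5 and 221 in WT and 55.8 and 194 in Ikbke-/- cells and stayed under the floor, at 75.1 to 106, in both genotypes without Tbk1, and none of these values reached 2 floors. Of 8 IRF cofactors and regulators, 1 was higher in WT and 2 in Ikbke-/- cells (3.04% and 3.22% of all probe sets). They were Trim21, a ubiquitin ligase, with log2 ratios of 3.26 and 3.18, and in Ikbke-/- cells Rbck1 with 1.21.

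Genes downstream of the factors were counted in the same way. Of 7 listed targets of Irf3 and Irf7, 6 were higher in WT cells and 6 in Ikbke-/- cells (3.04% and 3.22% of all probe sets). The list's median log2 values were 5.24 and 5.59. A lower response without Tbk1 was called for 6 (1.51% of all), none with all arrays without Tbk1 under the floor. Ifit1 (65.1 and 104), Ifit2 (28.8 and 15.5) and Ifit3 (65.5 and 35.4) were under the floor on both Tbk1-/- arrays. Cxcl10 (16.4 and 108) was under it on both double mutant arrays. Their ratios there are 0 by construction. Without Tbk1, Ifit2 reached the floor only on the double mutant B-DNA array, at 127. Ifit2, Ifit3 and Ifit1, which encode antiviral RNA-binding proteins, had WT log2 ratios of at least 6.09, of 5.97 and of 5.32. The chemokine genes Cxcl10 and Ccl5 had 5.24 and 4.23, and Oasl1 had 5.20. In Tbk1-/- cells Cxcl10 was higher (161 and 328, log2 1.02) and Ccl5 lower (538 and 204, log2 -1.40), and in double mutant cells Oasl1 was lower (251 and 91.4, log2 -1.04 against the floor).

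Of 16 ISGF3 targets, 15 were higher in WT and 16 in Ikbke-/- cells (3.04% and 3.22% of all probe sets). None was higher in Tbk1-/- or double mutant cells (0.311% and 0.652% of all). For Tbk1 dependence 15 were called, against 1.51% of all called with a lower response. Of these, 8 had all arrays without Tbk1 under the floor and 7 did not. The nucleotide kinase Cmpk2 and the antiviral GTPases Mx1 and Mx2 had WT log2 ratios of at least 5.91, 5.89 and 4.57, and Oasl2 of at least 5.28. The measured WT log2 ratios of Usp18 and Parp14 were 5.11 and 4.67. Of 13 Irf1 targets, 10 were higher in WT and in Ikbke-/- cells (3.04% and 3.22% of all). In Tbk1-/- cells none of the 13 was higher and 1 was lower (0.311% and 0.482% of all). The lower one was Vcam1, at 1734 and 838 (log2 -1.05), against a log2 ratio of 1.52 in WT cells. For Tbk1 dependence 9 were called (1.51% of all with a lower response), 3 of them with all arrays without Tbk1 under the floor. The GTPase genes Igtp, Gbp2 and Gbp3 had WT log2 ratios of 5.45, 5.09 and at least 4.03, the antigen-presentation genes Tap1 and Psmb8 had 3.53 and 3.43, and Socs1 had 3.13. In the double mutant, where the Irf1 ratio was 3.02-fold, 0 of the 13 were higher, against 0.652% of all probe sets. At so small a share, 0 of 13 does not set the list apart. Their median log2 ratio was 0. Gbp3, Psmb8, Psmb9, Ciita and Il15 were under the floor on both double mutant arrays, so their ratios there are 0 by construction. Gbp2 read 97.6 and 128 and Tap1 read 420 and 368.

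NF-kB, a separate transcription factor family, is known to act with IRFs on inflammatory genes and on the Irf1 gene itself. Of 10 of its subunits and targets that reached the floor, 3 were higher in WT, 1 in Ikbke-/-, none in Tbk1-/- and 4 in double mutant cells. The shares of all probe sets were 3.04%, 3.22%, 0.311% and 0.652% in the same order. None of the 10 was called for Tbk1 dependence, against 1.51% of all called with a lower response. The median log2 ratios of the 10 were 0.69, 0.39, -0.10 and 0.85 in the same order of genotypes. The chemokine gene Cxcl1 read 131 and 1078 in the double mutant (log2 3.05) and 311 and 291 in Tbk1-/- cells. Ccl2 had log2 ratios of 1.24 in WT, 1.54 in Ikbke-/- and 1.04 in double mutant cells, and Zfp36 had 1.19 in WT and 1.60 in the double mutant. Icam1, an adhesion molecule, had at least 1.56 in the double mutant and 0.81 in WT cells. For each of these 4 genes the double mutant mock signal was the lowest among the mock arrays. Ccl2 read 1538 and 3161 in the double mutant, against 9264 and 21927 in WT cells. Zfp36 read 614 and 1856 against 1384 and 3151, and Icam1 read 68.3 and 361 against 337 and 592. Cxcl1 read 370 and 967 in WT cells, where its B-DNA signal was under that of the double mutant. In the test of Tbk1 dependence the limma adjusted p of these 4 genes ranged from 0.197 for Ccl2 to 0.966 for Icam1, and the difference between the Tbk1-/- and double mutant ratios was not tested.

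**Figure D4:**
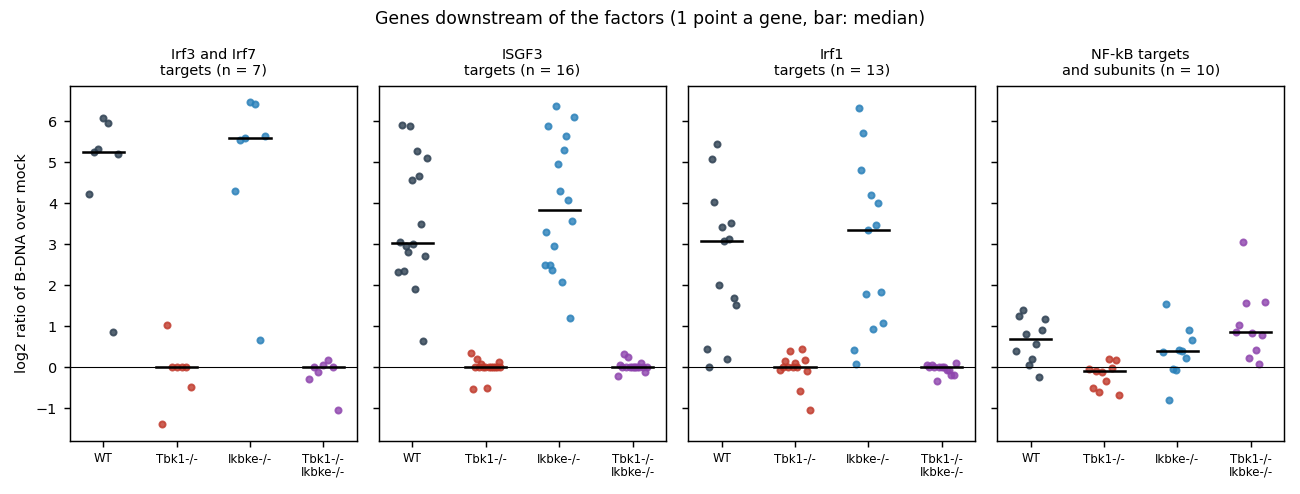
Log2 ratio of B-DNA over mock in each genotype for the genes of 4 fixed lists, 1 point a gene by its brightest probe set and a bar at the median; a gene with both signals under the floor is at 0 and one with a single signal under it is at its bound. The Irf3 and Irf7, ISGF3 and Irf1 target lists have medians of 5.24, 3.03 and 3.08 in WT cells and 0 in both genotypes without Tbk1, and the NF-kB list has 0.85 in the double mutant.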

How the data were processed

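Each genotype and treatment was hybridised to 1 Affymetrix array of 1 colour, 8 in all. The deposited intensity values were made by the authors with MAS5, per the submitters' processing notes, and Microarray Suite version 5.0 and GeneSpring are named in the series' design text, which gives GeneSpring no role. Detection calls were not used here. The array type in the design text is not that of the platform annotation whose probe set names matched and which named the genes; 20380 probe sets had 1 gene symbol, 691 several and 1555 none, and 20351 symbols were updated through the gene number to RefSeq (GRCm38.p6). Precision is limited by the number of arrays. With no replicates, the p-values take their error from what each model leaves unfitted. In the fit of Tbk1 and Ikbke dependence, that is how far the Tbk1 effect on the ratio differs between the Ikbke genotypes. limma moderates this error over all probe sets. Technical spread and genotype differences cannot be told apart in it.

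The 64 control probe sets were left out of 22690. Each array was scaled to a 2% trimmed mean of 500, signals were floored at the 40th percentile, and log2 was taken. Values within a genotype were compared by the 2-fold rule. limma 3.58.1 (R 4.3.3) tested probe sets at or above the floor on at least 1 array, with Benjamini-Hochberg adjustment at 0.05. The average response used a genotype block; dependence on Tbk1 and Ikbke added their interactions with treatment; mock levels used additive genotype factors. The fits were run on simulated arrays with independent noise and with changes in brighter probe sets, alike in both genotypes with Tbk1. That simulation held no genotype bound at the floor and no difference between Ikbke genotypes, so it does not cover calls shaped by those features. All member probe sets are named, with up to 6 genes of each list by the size of the WT ratio among those past 2-fold or called, and the 5 genes most correlated with each member that ranged over 1 or more log2 units. The members and lists were chosen with earlier results of these data known. Alternatives covered the scaling, floor, filter, probe set choice, model and pairs of arrays.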

Additional observations from a re-analysis of the deposited data

Results flagged for a closer look

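The response of 3 IRF genes to B-DNA differed between cells with and without Tbk1 by the interaction term of the limma model: Irf7 (log2 estimate -4.80), Irf9 (-1.93) and Irf2 (-1.91). Each was higher after B-DNA in both genotypes with Tbk1 and in neither genotype without it. Irf7 and Irf9 were above the floor on all 8 arrays. Irf2 was under the floor on all 4 arrays without Tbk1, so its ratios there are 0 by construction and its test gives no support beyond its signals. Groups of 1 array gave no check for a single array that stands apart from its replicates.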

How the results depend on the processing

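Over the planned and added alternatives, 320 single-gene values kept their side of the threshold without turning sign, 23 no longer passed it, and 22 turned sign. The 23 were the Tbk1 calls of Irf2, Irf7 and Irf9, which kept their direction, and the 22 passed no test in any setting. Without scaling, the average response became -0.15 for Irf3 1426111_x_at, -0.044 for Irf3 1435271_at and -0.076 for Irf5 1449678_at, and the Tbk1 dependence 0.16 and 0.23 for the same Irf3 probe sets. The mock level by Tbk1 became -0.24 for Irf3 1426111_x_at, -0.18 for Irf5 1449678_at and -0.033 for Irf7, and that by Ikbke -0.053 for Irf1, -0.048 for Irf5 1449678_at and -0.15 for Irf9. With quantile normalization, the Tbk1 dependence of Irf3 1435271_at became 0.065 and the Ikbke dependence of Irf7 -0.079. Leaving out 1 pair gave an average response of -0.30 to 0.30 for Irf3 1416898_a_at, -0.12 to 0.075 for Irf3 1426111_x_at and -0.060 to 0.11 for Irf5 1449678_at. It gave a Tbk1 dependence of -0.0023 to 1.55 for Irf3 1416898_a_at, -0.45 to 0.13 for Irf3 1426111_x_at, -0.20 to 0.20 for Irf3 1435271_at and -0.19 to 0.32 for Irf5 1449678_at. The count of probe sets called for Tbk1 dependence, 270, was 144 without further scaling, 60 with the floor at the 20th percentile, 0 with no filter on low signals, 0 with additive genotype factors, and 0 to 0 when 1 pair of arrays was left out. It was 124 without the Ikbke interaction on all pairs, an alternative chosen after seeing the data. The fits that left out a pair also had no Ikbke interaction. The mock level by Ikbke genotype gave 17 calls in place of 0 among probe sets above the floor on all arrays. For probe sets past 2-fold after B-DNA, WT cells had 499 higher and 299 lower, and 278 and 1228 without scaling, 1296 and 835 with the lower floor and 315 and 182 with the brightest probe set of each gene. Tbk1-/- cells had 51 and 79, then 194 lower without scaling, 382 and 451, and 28 and 39 in the same order. Ikbke-/- cells had 528 and 238, then 683 lower without scaling, 1012 and 650, and 342 and 158. Double mutant cells had 107 and 140, then 200 and 39, 572 and 776, and 52 and 72. With the brightest probe set of each gene, 0 IRF genes were lower in Ikbke-/- cells in place of 1. The cause of these shifts was not tested beyond the smaller number of features or arrays. The mock and B-DNA arrays of a genotype were paired by the genotype block in the fits of the response, and no replicate numbers were there to pair further. Signals under the floor limit Irf2, Irf4, Irf8, Irf3 1416898_a_at, Irf3 1438721_a_at and Irf5 1449678_at.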
